A study of Mus musculus with 56 samples.

Results

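The genes described here are 8 markers of border-associated macrophages, measured in microglia sorted from mouse brain: F13a1, Cd163, Mrc1, Pf4, Lyve1, Stab1, Cbr2 and Folr2. They were taken as the rows of the deposited count table that carry these symbols, 8 of 53801 gene rows, and each symbol occurred once. Border-associated macrophages live in the meninges, in the choroid plexus and along blood vessels, and clear proteins and debris from the fluids that bathe the brain. They carry CD11b like microglia do, so a sort for Cd11b can collect both. The genes fall into scavenger and endocytic receptors (Cd163, Mrc1, Stab1, Lyve1, Folr2), secreted proteins (F13a1, Pf4) and an enzyme (Cbr2). Trem2, the gene targeted in the knockout mice, codes for a lipid-sensing receptor of microglia and other macrophages.

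Brains of 28 female mice were dissociated after perfusion, and Cd11b+ cells (microglia) and ACSA-2+ cells (astrocytes) were sorted from each brain. The mice were wild type (WT, TREM2 +/+) or homozygous knockout (KO, TREM2 -/-), and young (2 months) or old (16 months in the sample labels, 16 to 18 months in the protocol). The groups are therefore young WT, young KO, old WT and old KO, each with 7 microglia and 7 astrocyte libraries, 56 libraries in all. All groups share the female sex, the sort and a 3′ tag library kit. The sources used here name neither the strain nor the design of the knockout allele. The libraries are bulk RNA, so more border macrophages among the sorted cells and more RNA of these genes per cell cannot be told apart.

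Microglia libraries held 200710 to 1034874 counts, of which 282 to 1335 (median 841) came from the 8 genes. Values are CPM, a gene's counts relative to the library's total, scaled between libraries by TMM (a trimmed mean of ratios between libraries), and a group's mean is given ± SD with n = 7. Tags are read from the 3′ end and carry no length correction. Levels are compared between libraries, and sums and shares over genes describe counts only. Trem2 itself averaged 465 ± 127 (WT) and 99.3 ± 28.9 CPM (KO) in young microglia, and 470 ± 101 (WT) and 116 ± 31.5 CPM (KO) in old microglia. The highest KO library, at 174 CPM, was below the lowest WT library, at 296 CPM. No source used here says which part of the gene the knockout changes or whether the 3′ tag lies in it. These levels therefore check the labels and not the loss of the protein. Fold changes are log2 ± standard error from edgeR's quasi-likelihood test, and a gene was called at a Benjamini-Hochberg adjusted p under 0.05 over 7512 genes tested in microglia. All 8 genes passed the filter on low counts there.

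F13a1 lies on chromosome 13 (36867178 to 37050244, GRCm38), Mrc1 on chromosome 2 (14229392 to 14332057) and Cd163 on chromosome 6 (124304656 to 124330527). The start regions of these 3 genes are shown because F13a1 and Cd163 were the genes called in microglia and because F13a1 and Mrc1 varied together between libraries. Each window holds 300 bases, 250 before and 50 after a RefSeq start (GRCm38.p6), and capitals mark the letters GAGGAA, a core of sites bound by the macrophage factor PU.1, read on both strands (TTCCTC on the other).
F13a1 upstream start, chr13:37050195-37050494, minus strand: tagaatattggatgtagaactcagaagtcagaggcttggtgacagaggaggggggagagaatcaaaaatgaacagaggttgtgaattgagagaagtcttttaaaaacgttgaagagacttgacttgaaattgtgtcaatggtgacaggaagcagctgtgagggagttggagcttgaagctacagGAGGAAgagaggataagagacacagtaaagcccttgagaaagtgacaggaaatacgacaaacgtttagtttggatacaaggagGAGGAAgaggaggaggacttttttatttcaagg
F13a1 downstream start, chr13:37049164-37049463, minus strand: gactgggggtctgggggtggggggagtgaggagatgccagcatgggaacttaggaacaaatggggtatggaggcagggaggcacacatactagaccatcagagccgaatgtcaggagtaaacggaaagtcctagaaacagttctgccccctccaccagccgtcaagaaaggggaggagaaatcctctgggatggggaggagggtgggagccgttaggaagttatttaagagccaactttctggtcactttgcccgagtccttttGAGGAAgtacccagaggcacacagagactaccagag
Mrc1, chr2:14229164-14229463, plus strand: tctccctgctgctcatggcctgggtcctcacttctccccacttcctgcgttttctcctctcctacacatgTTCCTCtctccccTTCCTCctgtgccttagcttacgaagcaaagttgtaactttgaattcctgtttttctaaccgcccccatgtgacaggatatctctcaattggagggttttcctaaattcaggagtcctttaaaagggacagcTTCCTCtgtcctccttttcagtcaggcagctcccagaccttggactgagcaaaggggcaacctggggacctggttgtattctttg
Cd163, chr6:124304401-124304700, plus strand: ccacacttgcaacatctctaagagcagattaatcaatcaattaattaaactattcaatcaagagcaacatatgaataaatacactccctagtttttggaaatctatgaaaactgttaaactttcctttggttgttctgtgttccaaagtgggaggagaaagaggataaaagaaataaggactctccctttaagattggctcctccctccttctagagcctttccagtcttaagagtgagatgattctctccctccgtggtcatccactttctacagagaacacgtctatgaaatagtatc
The Mrc1 window held 3 matches, the F13a1 windows 2 and 1, and the Cd163 window 0. RefSeq windows were found for 7 of the 8 genes, 9 in all, and 6 of the 9 held at least 1 match, as did 28.3% of 32851 windows over all genes. Pf4, Cbr2 and Stab1 had 1 match each and both Folr2 windows had 0. The MAF half-site TGCTGA was present in 4 of the 9 windows against 19.5% of all, and the AP-1 motif TGANTCA in 1 of 9 against 7.81%. A match describes letters and not a bound site.

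The other genes lie on chromosomes 5 (Pf4, 90772435 to 90773383), 7 (Lyve1, 110850607 to 110863239; Folr2, 101839988 to 101857194), 11 (Cbr2, 120729489 to 120732114) and 14 (Stab1, 31139013 to 31168641), and all 8 are protein-coding. In the annotation Folr2 overlaps the antisense gene Gm10602, which had at most 5 counts in a microglia library, and Stab1 overlaps Nt5dc2 on the opposite strand, which had at most 11. No source used here says whether counting used the strand, so Folr2, whose own counts were few, is the least certain of the 8.

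The 8 genes belonged to the microglia sort. Their summed level, on a scale common to both sorts, ran from 775 to 1759 CPM over the 28 microglia libraries (median 1225) and from 12.7 to 120 CPM over the 28 astrocyte libraries (median 23.05). The ranges did not overlap, and the lowest microglia library was above the highest astrocyte library. All 8 genes were higher in microglia than in astrocytes past the threshold, where 42.8% of 9434 genes were, with log2 differences from 4.55 ± 0.16 (Cd163) to 5.598 ± 0.25 (Lyve1). Background in the astrocyte sort was 1.45% (Folr2) to 3.74% (Cd163) of the microglia level, with a median of 2.47%. P2ry12, which marks homeostatic microglia, averaged 3584 CPM in the microglia sort. Genes of that kind, such as Tmem119 at 2.73% and P2ry12 at 3.08%, also had a median of 2.73% there over 15 genes (1.89 to 67.8%, the top being Sparc). In astrocyte libraries the 8 genes gave 459 counts in all, against 22239 in microglia, and Folr2 gave 2 counts, both in old KO animal 12. That library and old WT animal 27 were the highest of the astrocyte sort, with 48 and 45 counts of the 8 genes. None of the 8 passed the count filter in the astrocyte fit, so KO and WT astrocytes were not compared for them.

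**Figure D1:**
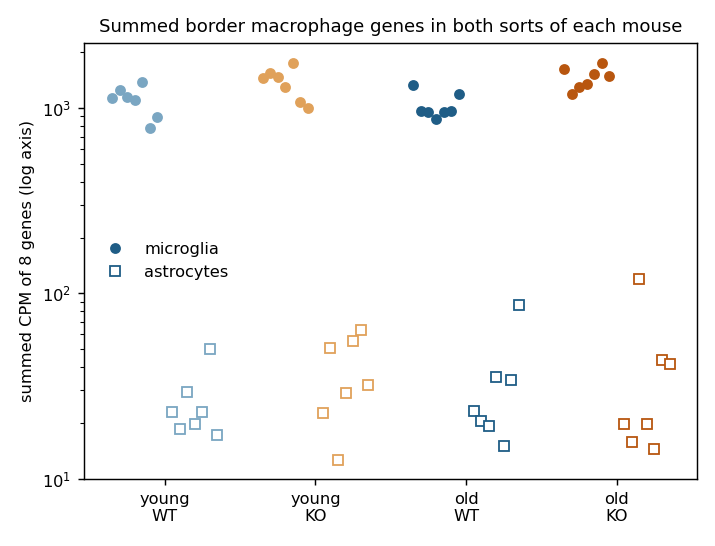
Summed CPM of the 8 border macrophage genes (vertical log axis, scale common to both sorts) in each microglia library (filled circles) and astrocyte library (open squares) of young WT, young KO, old WT and old KO mice. Microglia libraries sit between 775 and 1759 CPM and astrocyte libraries between 12.7 and 120 CPM.

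Within the microglia sort, the summed level was 1195 ± 202 (WT) and 1490 ± 319 CPM (KO) in young mice, and 1136 ± 176 (WT) and 1614 ± 196 CPM (KO) in old mice. In old KO libraries the sum ran from 1450 to 1940 CPM, and in old WT libraries from 969 to 1469 CPM. These ranges met only at old WT animal 3, at 1469 CPM, above old KO animals 8, 12 and 16. Young KO libraries spread over 1064 to 1943 CPM and young WT over 865 to 1479 CPM, so that these groups overlapped widely. The lowest young libraries of both genotypes had the highest animal numbers of their groups. They were WT animals 21 (865 CPM) and 25 (1007 CPM) and KO animals 22 (1113 CPM) and 26 (1064 CPM). In old mice the lowest were WT animal 15 and KO animal 12. The part of animal order in these sums was not tested. The sum describes the 8 genes together and was not tested.

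F13a1, the A subunit of coagulation factor XIII and a transglutaminase made by tissue macrophages and platelets, was higher in old KO than in old WT microglia. In old WT libraries it lay at 164, 203 and 316 CPM (lowest, median and highest), and in old KO libraries at 315, 396 and 479 CPM. Only the highest old WT library, animal 27, reached above the lowest old KO library, animal 16. Means were 228 ± 56.8 and 385 ± 58.3 CPM, and F13a1 rose by log2 0.75 ± 0.15 (adjusted p = 0.00897). It was 1 of 8 genes of the set called in that direction, where 0.0133% of all genes tested were, and the 1 gene so called in the whole fit. Without old WT animal 15 the adjusted p was 0.0552, and without old WT animal 19 it was 0.0522, with log2 0.68 and 0.69. In young mice F13a1 lay at 156, 220 and 296 CPM in WT and 194, 264 and 309 CPM in KO libraries, and these ranges overlapped (log2 0.19 ± 0.15, adjusted p = 0.798).

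Cd163, the scavenger receptor for haemoglobin bound to haptoglobin, separated the old groups fully. Old WT libraries lay at 52.4, 71.8 and 80.0 CPM and old KO libraries at 105, 117 and 123 CPM. The lowest old KO library was above the highest old WT library, a separation in that direction seen in 0.0266% of genes tested (2 of 7512). The log2 difference was 0.79 ± 0.18, and its adjusted p of 0.0539 did not pass the threshold in the fit of all 4 groups. It passed with DESeq2 (0.0138), with limma-voom (0.0357), with only the old groups fitted (0.00349), without the filter on low counts (0.00746), with a covariate for blocks of 4 successive animals (0.00947) and with RNA integrity as a covariate (0.0485). With relative log expression scaling in place of TMM it was 0.0511. It also passed in 6 of the 28 fits that left out 1 library, with adjusted p between 0.0240 and 0.0492. These left out old WT animal 3, young KO animal 6, 10, 22 or 26, or young WT animal 5. In the other fits of this kind it did not pass, with adjusted p up to 0.187. Old KO libraries were close together, with an SD of 6.79 CPM around a mean of 115 CPM. These levels rest on few counts, 24 (animal 8) to 94 (animal 20) in old KO libraries. Old WT libraries had 22 (animal 3) to 40 (animal 19). Counting error is large at such counts, so the SD does not show how alike the mice were. Its part in the separation was not tested.

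Young mice showed another picture for Cd163. Young WT libraries lay at 79.0, 87.5 and 124 CPM and young KO libraries at 40.6, 71.5 and 117 CPM. The SD in young KO was 30.0 CPM, with animals 22 and 26 at 42.3 and 40.6 CPM and animals 6 and 10 at 110 and 117 CPM. The difference of KO from WT was log2 -0.31 ± 0.17 (adjusted p = 0.729), opposite in sign to that in old mice.

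**Figure D2:**
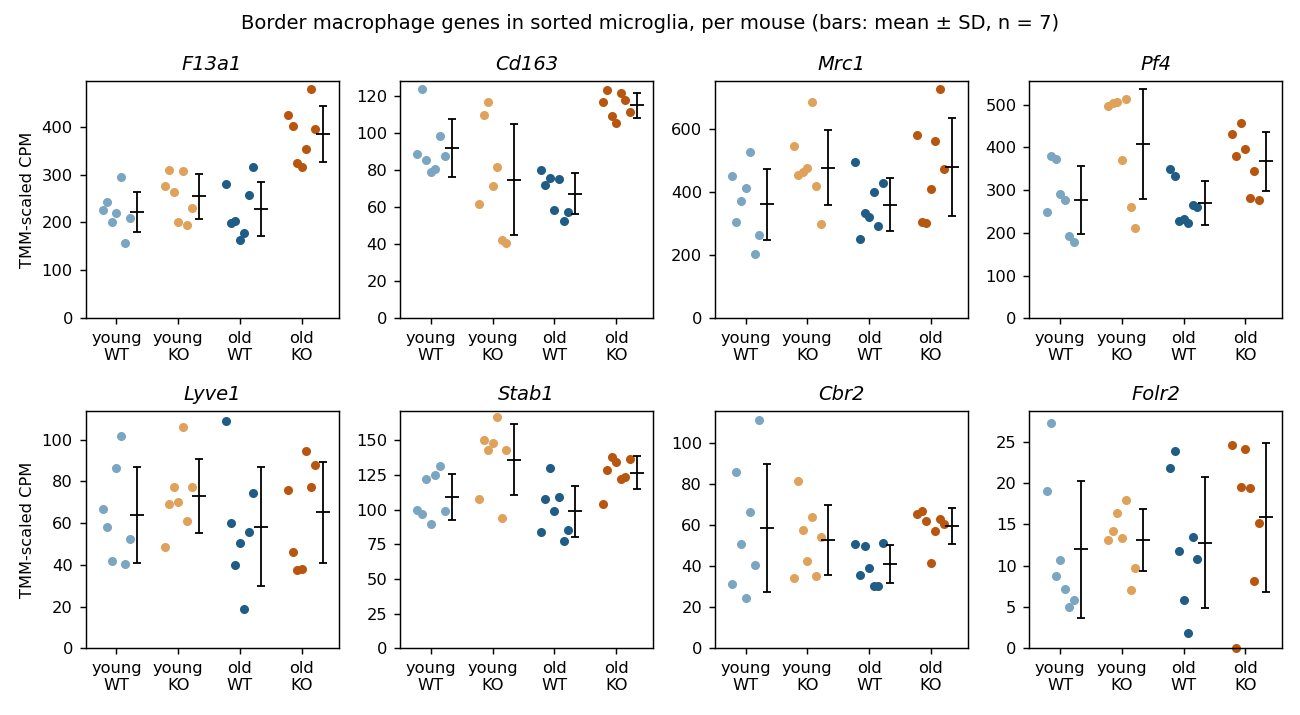
TMM-scaled CPM (vertical axes, from 0) of each of the 8 genes in each microglia library of the 4 groups; points are mice and bars are the mean ± SD of 7 mice. Old KO points for Cd163 lie between 105 and 123 CPM, all above the old WT points, while old KO and old WT points overlap for each of the other genes.

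Pf4, the chemokine CXCL4 that platelets store and border macrophages also make, had higher means in KO than in WT at both ages. Young WT libraries lay at 178, 276 and 379 CPM and young KO libraries at 211, 496 and 513 CPM. In young KO, 4 libraries (animals 2, 6, 10 and 18) lay between 496 and 513 CPM, above every young WT library, and animals 22 and 26 lay at 261 and 211 CPM, within the WT range. Young WT animals 21 and 25 were likewise the lowest of their group, at 192 and 178 CPM. Old WT libraries lay at 224, 260 and 349 CPM and old KO libraries at 276, 381 and 457 CPM, which overlapped. The log2 differences were 0.55 ± 0.18 in young (adjusted p = 0.709) and 0.45 ± 0.18 in old mice (adjusted p = 0.9997), and neither passed the threshold. Over both ages the difference was 0.50 ± 0.13 (adjusted p = 0.124), and without young KO animal 26 it was 0.56 (adjusted p = 0.0235). It also passed over both ages with the animal blocks (0.49, adjusted p = 0.00922) and without the filter on low counts (0.51, adjusted p = 0.000319), as did the difference in young mice without the filter (0.58, adjusted p = 0.0152).

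Of the other receptors, Mrc1, the mannose receptor CD206, averaged 361 ± 113 (WT) and 477 ± 119 CPM (KO) in young mice, and 360 ± 84.6 (WT) and 480 ± 155 CPM (KO) in old mice. Its differences of KO from WT were log2 0.39 ± 0.19 in young and 0.43 ± 0.19 in old mice, and the groups overlapped at both ages. Stab1, the scavenger receptor stabilin-1, averaged 109 ± 16.4 (WT) and 136 ± 25.5 CPM (KO) in young mice, and 98.95 ± 18.3 (WT) and 127 ± 11.7 CPM (KO) in old mice. Its log2 differences were 0.31 ± 0.13 and 0.36 ± 0.14. Lyve1, the hyaluronan receptor, differed by log2 0.14 ± 0.24 in young and 0.24 ± 0.26 in old mice, with old WT libraries from 18.8 to 109 CPM spanning all of the old KO libraries. Folr2, folate receptor beta, lay between 0 and 27.3 CPM, and its differences of 0.032 ± 0.38 and 0.52 ± 0.40 had the widest errors of the set. Old KO animal 8, the shallowest microglia library, had 0 counts of Folr2, and 0 counts of its 200710 allow up to 14.9 CPM (3 counts of the total, for counting error only). Mrc1, Stab1, Lyve1 and Folr2 did not pass the threshold at either age.

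Cbr2, a carbonyl reductase, was the enzyme of the set. It averaged 58.5 ± 31.2 (WT) and 52.7 ± 16.8 CPM (KO) in young mice, and 41.0 ± 9.45 (WT) and 59.4 ± 8.59 CPM (KO) in old mice. Young WT libraries were spread from 24.3 to 111 CPM. The differences of KO from WT were log2 -0.12 ± 0.24 in young and 0.53 ± 0.25 in old mice, and neither passed the threshold.

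Counted as a set, 0 of the 8 genes were called between KO and WT in young microglia, where 0.0532% of all genes tested were (4 of 7512). DESeq2 and limma-voom also called 0 of the 8, 2 of the 8 (Pf4 and Stab1) had an unadjusted p under 0.05 against 6.79% of all genes, and 6 of 8 differences were positive with a median of log2 0.16. In old microglia 1 of 8 was called in either direction, against 0.133% of all genes, 8 of 8 differences were positive, 6 had an unadjusted p under 0.05 against 4.55% of all genes, and the median was log2 0.48. The median over all genes tested was below 0.01 in size at both ages, and 48.9% and 50.1% of all differences were positive. The 8 genes were chosen with earlier results of these data known, and 23 of their 28 pairs had a positive r between libraries (below). Their signs are therefore not 8 separate observations, and the shares over all genes are a description and not a test of the set. Over both ages F13a1 was called (log2 0.47 ± 0.10, adjusted p = 0.0290), where 0.0133% of genes were called higher. That call was lost on leaving out any 1 of 13 of the 28 libraries: young WT animals 1, 9 and 21, young KO animals 2, 6 and 18, old WT animals 7, 11, 15 and 19, and old KO animals 4, 24 and 28. Without them the log2 difference lay between 0.43 and 0.47 and the adjusted p between 0.0508 and 0.0859. Mitochondrial rRNA gave 7.79 ± 1.06% (WT) and 7.47 ± 0.856% (KO) of counts in young and 9.80 ± 1.34% (WT) and 8.298 ± 1.37% (KO) in old microglia, and its part in the differences between groups was not tested. The young and old comparisons contrast different libraries, but they are not independent. All 28 libraries share 1 estimate of the spread per gene, and both comparisons enter the comparison over both ages. The F13a1 calls in old mice, over both ages and, below, with age all use the same old KO libraries.

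**Figure D3:**
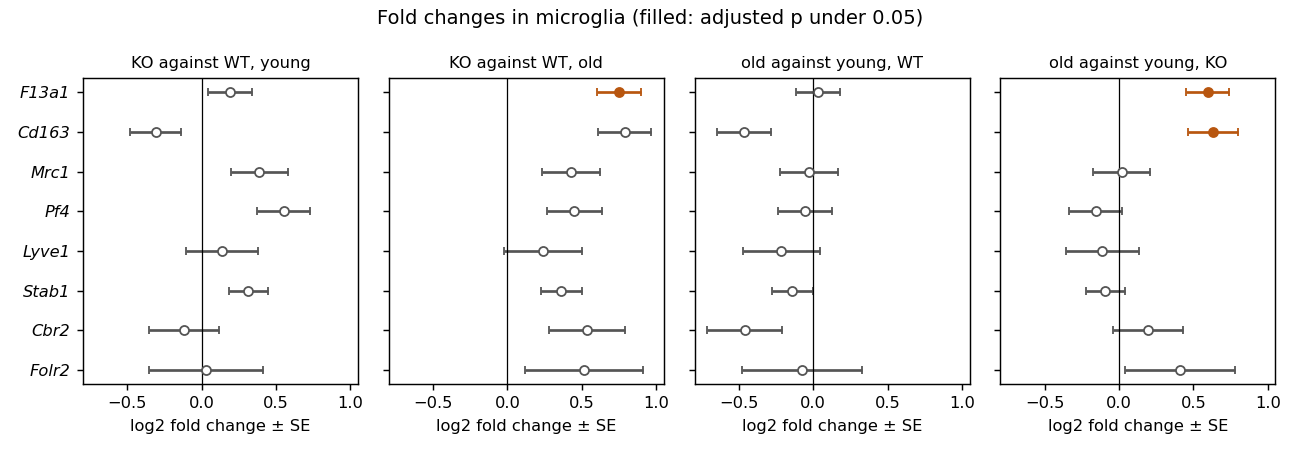
Log2 fold change ± standard error (horizontal axes) of the 8 genes for KO against WT in young and old microglia and for old against young in WT and KO microglia; filled points passed an adjusted p of 0.05. Filled points are F13a1 in old KO against old WT, and F13a1 and Cd163 in old against young KO.

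With age, F13a1 and Cd163 were called higher in KO microglia, and none of the 8 genes was called in WT microglia. The test given below of whether ageing differed between KO and WT mice called 0 of the 8, where 0.0266% of all genes were called. In WT mice 0 of 8 were called, by edgeR, DESeq2 and limma-voom alike, where edgeR called 5.1% of all genes tested. Only Cd163 had an unadjusted p under 0.05, as did 18% of all genes, at log2 -0.46 ± 0.18 (adjusted p = 0.141), and 7 of 8 differences were negative. F13a1 differed by log2 0.034 ± 0.15 with age in WT mice. In KO mice 2 of 8 were called higher, where 1.62% of all genes were. F13a1 rose by log2 0.60 ± 0.14 (adjusted p = 0.0177), and every old KO library, the lowest at 315 CPM, was above every young KO library, the highest at 309 CPM. Such a separation upward was seen in 0.666% of genes tested. Cd163 rose by log2 0.63 ± 0.17 (adjusted p = 0.0419), while 2 young KO libraries (animals 6 and 10) lay within the old KO range. The other 6 genes differed with age in KO mice by log2 -0.16 (Pf4) to 0.41 (Folr2).

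Single libraries decided these calls. The F13a1 call in ageing KO mice was lost without old KO animal 24, young KO animal 14 or young KO animal 22, at log2 0.54 to 0.55 and adjusted p of 0.0589 to 0.0614. The Cd163 call was lost without any 1 of old KO animals 4, 8, 20, 24 and 28 or young KO animals 2, 14, 18, 22 and 26, at log2 0.52 to 0.66 and adjusted p of 0.0508 to 0.111. It was also lost when only the 2 KO groups were fitted (adjusted p = 0.0900). Over both genotypes F13a1 was called higher with age at log2 0.31 ± 0.10 (adjusted p = 0.0488), where 6.16% of genes were called higher. Leaving out any 1 of 17 libraries ended that call, with log2 0.27 to 0.33 and adjusted p of 0.0501 to 0.105: young WT animals 1, 5, 9, 13, 21 and 25, young KO animals 10, 14, 22 and 26, old WT animals 3, 23 and 27, and old KO animals 4, 8, 24 and 28.

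A further test asked whether the difference of KO from WT itself changed with age, or equally whether ageing differed between KO and WT mice. It called 0 of the 8 genes, where 0.0266% of all genes were called. It found 2 of the 8 at an unadjusted p under 0.05, against 4.71% of all genes, and DESeq2 also called 0. Cd163 had the largest value of the set, log2 1.09 ± 0.25 (adjusted p = 0.206), from a negative difference in young to a positive one in old mice. Limma-voom gave 1.19 (adjusted p = 0.0441), the fit without the filter 1.06 (adjusted p = 0.0169) and the animal blocks 1.12 (adjusted p = 0.0366), and leaving out young KO animal 10 or 6 gave 1.23 (adjusted p = 0.0197) or 1.20 (adjusted p = 0.0416). Cbr2 (0.65 ± 0.35), F13a1 (0.56 ± 0.21, adjusted p = 0.998) and Folr2 (0.49 ± 0.55) followed, and Mrc1, Stab1, Lyve1 and Pf4 lay between -0.10 and 0.10.

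**Figure D4:**
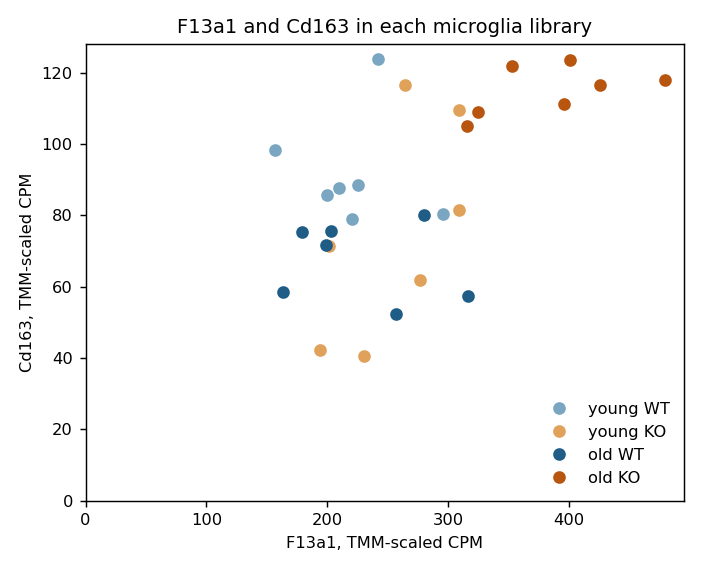
CPM of Cd163 (vertical axis) against CPM of F13a1 (horizontal axis) in each of the 28 microglia libraries, coloured by group. The 7 old KO libraries lie at 315 to 479 CPM of F13a1 and 105 to 123 CPM of Cd163, and young KO libraries spread from 40.6 to 117 CPM of Cd163.

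On average F13a1 made up more of the counts of the 8 genes in old KO mice, from the same F13a1 counts as the calls above. Its share of their summed counts was 18.5 ± 1.56% (WT) and 17.3 ± 2.29% (KO) in young mice, and 19.97 ± 3.28% (WT) and 23.9 ± 2.21% (KO) in old mice. Old KO libraries ran from 21.5 to 27.7%, young KO libraries from 14.4 to 21.6% and old WT libraries from 16.9 to 24.6%. Young WT libraries, at 16.0 to 20.9%, all lay below the old KO libraries. The share was not tested.

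Between mice of the same group, F13a1, Mrc1 and Lyve1 varied together. After group means were removed, the log2 levels of F13a1 and Lyve1 correlated over the 28 microglia libraries with Pearson's r = 0.616 (permutation p = 0.00124, adjusted p = 0.0203) and Spearman's rho = 0.600 (permutation p = 0.00144, adjusted p = 0.0153). F13a1 and Mrc1 had r = 0.584 (permutation p = 0.00145, adjusted p = 0.0203) and rho = 0.569 (permutation p = 0.00219, adjusted p = 0.0153). Without the 2 libraries farthest from the median of F13a1 (old WT animal 27 and young WT animal 21), r was 0.575 and 0.512. Both pairs had a positive r within each of the 4 groups, from 0.288 to 0.824 for Lyve1 and from 0.481 to 0.802 for Mrc1. Leaving out young WT animal 17 or 21 took the adjusted permutation p of F13a1 and Lyve1 to 0.0696 and 0.0944. With group means kept, F13a1 and Lyve1 had r = 0.418 (adjusted permutation p = 0.0799) and did not pass, and F13a1 and Mrc1 had r = 0.588 (adjusted permutation p = 0.0302). For F13a1 and Mrc1, leaving out young WT animal 17 or 21 or old KO animal 24 took it to 0.0696, 0.0951 and 0.0638.

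Of the 28 pairs among the 8 genes, 23 had a positive r, the median was 0.226, and 2 passed the adjusted threshold by r and 5 by rho. The 3 further pairs by rho were Mrc1 with Lyve1 (rho = 0.620, adjusted permutation p = 0.0153), Pf4 with Folr2 (rho = 0.541, adjusted permutation p = 0.0153) and F13a1 with Cbr2 (rho = 0.542, adjusted permutation p = 0.0309). Cd163 and F13a1, the genes called with ageing in KO mice, had r = 0.231 (adjusted permutation p = 0.470). The r of Stab1 with Lyve1, F13a1, Mrc1 and Folr2 lay between -0.213 and -0.117, and none of its pairs passed an unadjusted permutation p of 0.05. In young KO mice these 4 pairs had a positive r, from 0.185 to 0.782. All values come from the same libraries, so depth and the mix of sorted cells are shared by each pair.

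**Figure D5:**
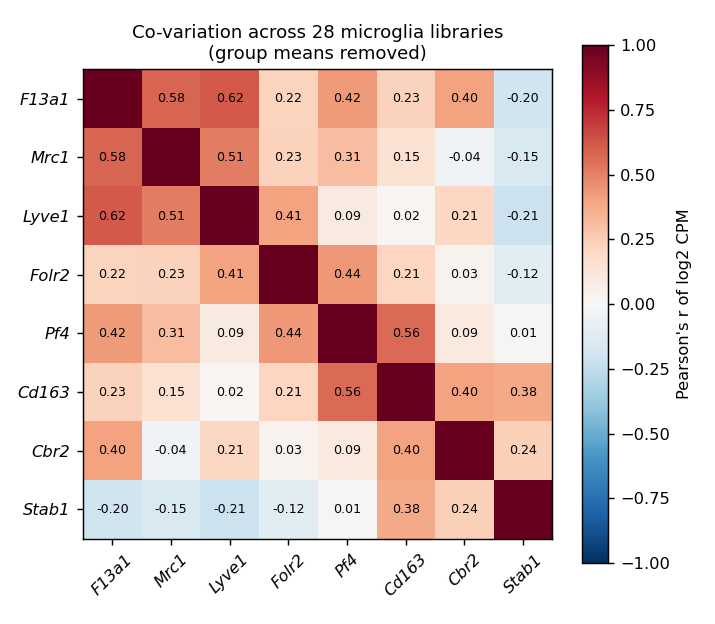
Pearson's r of log2 CPM between the 8 genes over the 28 microglia libraries after group means were removed (colour scale from -1 to 1, value in each cell). F13a1, Mrc1 and Lyve1 have r between 0.51 and 0.62 with each other, and Stab1 has negative r with F13a1, Mrc1, Lyve1 and Folr2.

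Outside the 8, Dab2 had the highest mean r with them, 0.399, among 7504 other genes tested, whose median was below 0.01 in size. Dab2 is an endocytic adaptor protein that was itself on the list of other border macrophage genes. In the astrocyte sort Dab2 had 26.1% of its microglia level, above the 1.45 to 3.74% of the 8. Its r was 0.661 with Pf4, 0.582 with F13a1 and 0.550 with Mrc1, and 0.0447 with Stab1. Banf1 (0.372), Fes (0.362), Zfp385a (0.347), Usp19 (0.339), Plcb3 (0.333), Taf5l (0.326) and Tomm7 (0.312) came next. Dab2 averaged 229 ± 28.4 (WT) and 291 ± 68.8 CPM (KO) in young mice, and 224 ± 33.9 (WT) and 266 ± 38.7 CPM (KO) in old mice. It was not called for genotype over both ages (log2 0.29 ± 0.09, adjusted p = 0.435).

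A list of 26 other border macrophage genes, of which 20 passed the filter, had 0 called between KO and WT at either age or over both. Its median differences were log2 0.17 in young and 0.25 in old mice, with 16 and 17 of the 20 positive. At an unadjusted p under 0.05 there were 3 and 5 genes of the 20, against 6.79% and 4.55% of all genes. Over both ages 7 of the 20 were, against 6.22% of all genes. Some genes of this list were not particular to the microglia sort. In the fit of both sorts 18 of 21 tested were called higher in microglia and 2 lower. Astrocyte levels of 24 of them ran from 0 to 624% of the microglia level, with a median of 4.14%. With age 2 of the 20 rose and 1 fell in WT mice, where 3.7% of all genes tested were called higher and 5.1% either way. In WT mice the chemokine gene Ccl8 rose by log2 1.96 ± 0.39 (adjusted p = 0.00125) and the lectin gene Cd209f by 0.95 ± 0.26 (adjusted p = 0.0207). Hpgd, which degrades prostaglandins, fell by 0.42 on the log2 scale (SE 0.12, adjusted p = 0.0243). In KO mice 4 of 20 rose, against 1.62% of all genes: Ccl8 (2.37 ± 0.34), Cd209f (1.39 ± 0.23), Tgfbi (0.81 ± 0.15) and the lectin gene Mgl2 (0.65 ± 0.14). Ccl8 averaged 8.24 ± 5.42 and 33.2 ± 14.1 CPM in young and old WT, and 9.87 ± 6.12 and 56.6 ± 21.5 CPM in young and old KO mice. Cd209f averaged 31.3 ± 15.2 and 66.4 ± 23.1 CPM in WT, and 42.5 ± 10.9 and 112 ± 35.5 CPM in KO mice. Over both genotypes 6 of the 20 rose, against 6.16% of all genes, with Clec12a and Ms4a7 added, and Hpgd fell. Of the 8 genes above, F13a1 alone was called over both genotypes.

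Other macrophage genes were measured beside the 8, and their differences were not tested against those of the 8. Among 11 tested scavenger and endocytic receptor genes, Clec7a, the beta-glucan receptor dectin-1, was lower in KO than in WT in young (log2 -1.26 ± 0.17) and old mice (-1.53 ± 0.15), and Axl, a receptor for dying cells, was lower in old KO mice (-1.26 ± 0.20). Both rose with age in both genotypes, Clec7a by 1.57 ± 0.14 in WT and 1.30 ± 0.18 in KO mice. Mertk, another receptor for dying cells, fell by 0.46 with age in WT mice on the log2 scale (adjusted p = 0.00608). MHC class II genes, which some border macrophages carry, had 0 of 6 called between KO and WT at either age. With age 1 of 6 rose in WT (H2-Aa, 0.89 ± 0.18), where 3.7% of all genes were called higher. In KO mice 4 of 6 rose, against 1.62% of all genes, led by H2-Aa (1.21 ± 0.18) and H2-Ab1 (1.19 ± 0.20). Of 10 macrophage transcription factor genes, 2 fell with age in WT mice, against 1.4% of all genes, and 0 were called between KO and WT. Spi1, which codes for PU.1, fell by 0.44 and Mef2c by 0.35 on the log2 scale. Homeostatic microglia genes had 5 of 15 fall with age in WT mice, led by Fcrls and Csf1r at 0.52 and 0.50 lower on the log2 scale. In KO mice 0 of 15 were called. Of all genes, 1.4% were called lower with age in WT and 0.186% in KO mice. The test of whether ageing differed between KO and WT mice called 0 of the MHC class II and 0 of the homeostatic genes. In old mice all 15 had a positive difference of KO from WT, with a median of log2 0.21 and 0 called.

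Markers of other cells that express some of the 8 genes were measured in the same libraries. Platelets also carry Pf4 and F13a1 RNA. The 12 platelet and megakaryocyte genes summed to 49.9 to 98.4 CPM in young and 42.5 to 71.0 CPM in old libraries, of which Gp9 and Itgb3 gave most, and 0 of 2 tested were called. Gp1ba, Gp5, Gp6 and Tubb1 had 0 counts in all 28 microglia libraries, and Ppbp had 0 counts in all old libraries. The part of platelets in the differences of F13a1 and Pf4 was not tested. Lymphatic endothelium carries Lyve1 and Stab1, and of its 6 markers Ccl21a and Mmrn1 had 0 counts in all 28 libraries, while Prox1, which neural cells also make, gave most of the summed 0 to 66.9 CPM. Monocytes carry F13a1 in mice. The sum of 10 monocyte genes was 160.5 ± 17.3 (WT) and 172 ± 19.6 CPM (KO) in young mice, and 250.3 ± 91.6 (WT) and 270.1 ± 134 CPM (KO) in old mice, and Plac8 and Fn1 rose with age in WT mice (2.67 ± 0.54 and 1.59 ± 0.37). Neutrophil genes summed to 451 ± 117, 613 ± 242, 1409 ± 1128 and 1667 ± 1837 CPM in the same order, and 5 of 6 rose with age in WT and 1 of 6 in KO mice, against 3.7% and 1.62% of all genes. All 6 had an unadjusted p under 0.05 in KO mice, against 12.2% of all genes, and their median was log2 1.68 in WT and 1.47 in KO mice. The part of monocytes and neutrophils in the ageing differences of F13a1 and Cd163 was not tested. Between old KO and old WT microglia, 0 of 4 tested monocyte genes and 0 of 6 neutrophil genes were called. All 6 neutrophil genes had a positive difference of KO from WT at both ages. Their medians were log2 0.48 in young and 0.34 in old mice, with 0 of 6 at an unadjusted p under 0.05. Of the 4 monocyte genes 2 were positive in young and 1 in old mice, with medians of log2 -0.029 and -0.22. The part of these cells in the KO differences of the 8 genes was not tested.

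Other cell types gave few calls. In old KO against old WT microglia, 0 genes were called among those tested of dendritic cells (2 of 9 tested), B cells (2 of 7), blood endothelium (2 of 8), pericytes and fibroblasts (1 of 8), red cells (1 of 5), astrocytes (6 of 8), oligodendrocytes (4 of 6) and neurons (3 of 7), and no T or NK cell gene passed the filter. In young mice the haemoglobin gene Hbb-bs was lower in KO (log2 -3.58 ± 0.71, adjusted p = 0.0247), with means of 48.1 ± 43.6 (WT) and 3.98 ± 5.23 CPM (KO). Cd163, whose protein takes up haemoglobin, was not called in that comparison, and the part of blood in its spread was not tested. With age the antibody gene Igkc rose in WT (4.02 ± 0.89) and KO mice (3.601 ± 0.82), as did the myelin gene Mbp (0.93 ± 0.19 and 0.81 ± 0.19). Mobp, a myelin gene, and Flt1, a gene of blood vessels, rose in WT mice (1.04 ± 0.29 and 1.31 ± 0.34), and Cd209a, a dendritic cell lectin gene, rose in KO mice (1.78 ± 0.49).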

How the data were processed

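Per the labels' protocols, sorted cells were made into 3′ tag libraries with a kit that adds unique molecular identifiers. The authors deposited whole-number counts per gene, with no normalization. The build was GRCm38.p6 and the tools STAR, FastQC 0.11.5, MultiQC and R 3.4.3, per the submitters' processing notes. No source used here gives the counting program, its strand setting, the annotation or the use of the identifiers.

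EdgeR 4.0.16 (R 4.3.3) was run on these counts (TMM, filterByExpr, quasi-likelihood test, Benjamini-Hochberg adjustment, threshold 0.05). The 28 microglia libraries were fitted together with 1 mean per group, and likewise the 28 astrocyte libraries (7524 genes tested) and all 56. Limma 3.58.1 and DESeq2 1.42.0 were alternatives. Positions are from GENCODE M21, which matched 51550 of 53801 identifiers. Correlations used log2 CPM with a prior count of 2 and two-sided permutation tests with 100000 resamples, adjusted over 28 pairs.

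The same animal number marks the 2 sorts of 1 mouse. Deviations of same-numbered sorts correlated with a median r of 0.0948 over 6730 genes, against 0.00359 between mice. Replicates differed beyond counting error in all 84 microglia pairs within groups (chi-square per degree of freedom 1.86 to 9.81). In simulated old KO against old WT data, 79% of genes changed 2-fold and 34% of those changed 1.5-fold were recovered over 7512 genes, and 6 unchanged genes were also called. For each fold 100 genes were changed in the same data, drawn above a level that Folr2 did not reach. The real comparison called 10 genes, and the adjusted threshold is stricter where fewer genes change. These shares may therefore overstate recovery in the real data.

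The genes and lists were chosen with earlier results of these data known. Genes named are the 8, Trem2, up to 4 rising and 4 falling other border macrophage genes per comparison past the threshold, up to 2 each way of every other list, and the 8 genes with the highest mean r. Markers of dendritic, B, T and NK, endothelial, mural, red, astroglial, oligodendroglial and neuronal cells were also measured. RNA integrity numbers were 8.7 to 10 in microglia.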

Additional observations from a re-analysis of the deposited data

Results flagged for a closer look

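Each group of 7 microglia libraries was examined for 1 library far from the others, for each of the 8 genes and Trem2. Of 36 groups, 2 held one, and chance alone gives about 1 in 20. Cd163 in young WT microglia was highest in animal 5, at 124 CPM, where the nearest other library was at 98.4 CPM. Cbr2 in old KO microglia was lowest in animal 16, at 41.4 CPM, where the nearest other was at 57.0 CPM. Neither library was left out of a fit, other than in the settings that leave out each library in turn.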

How the results depend on the processing

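The number of the 8 genes called was recomputed under other settings. In old KO against old WT it was 2 in place of 1 with DESeq2, limma-voom, RNA integrity as a covariate, no filter on low counts, only the 2 groups, or a covariate for blocks of 4 successive animals, and 0 to 2 on leaving out a library. Over both ages it was 3 without the filter (F13a1, Pf4 and Mrc1), 2 with the animal blocks (F13a1 and Pf4), and 0 to 2 on leaving out a library. In young mice it was 1 without the filter. For ageing it was 1 in KO mice with only the 2 groups and 0 to 2 on leaving out a library, and over both genotypes 0 without the filter and 0 to 1 on leaving out a library. For the change of the KO difference with age it was 1 in place of 0 with limma-voom, no filter or the animal blocks, and 0 to 1 on leaving out a library. Correlated pairs numbered 6 with group means kept, though F13a1 with Lyve1 was then no longer among them (r = 0.418, adjusted permutation p = 0.0799), and 0 to 4 on leaving out a library. The cause of these changes was not tested.

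All genes called changed by over 1.5 times as follows. Young KO against WT went from 4 to 63 without the filter, 7 with the animal blocks and 2 with only the 2 groups. Old KO against WT went from 10 to 26, 16 with the animal blocks and 16 with DESeq2. Both ages went from 17 to 65, and 28 with the animal blocks. Ageing KO went from 136 to 225, 243 with the animal blocks and 244 with limma-voom. The change of the KO difference went from 2 to 25, astrocytes from 0 to 11 (305 genes at an unadjusted p under 0.05), and microglia against astrocytes from 7922 to 13834, each without the filter. With each mouse as a replicate block, microglia against astrocytes called all 8 genes and 7943 genes in all, so that pairing the sorts changed no call of the 8.

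Signs turned for log2 differences near 0 that were not called. With age in WT mice, Pf4 went to 0.0015 and Folr2 to 0.066 with the animal blocks, and Folr2 to 0.054 with RNA integrity. With age Mrc1 went to -0.027 in KO mice without the filter, and over both genotypes to 0.0020 with DESeq2, 0.016 with limma-voom and 0.0041 with the animal blocks. Leaving out a library gave the following ranges. KO against WT in young mice ran from -0.26 to 0.067 for Cbr2 and -0.073 to 0.30 for Folr2. Ageing in WT mice ran from -0.12 to 0.095 for Mrc1, -0.13 to 0.040 for Pf4, -0.062 to 0.13 for F13a1 and -0.29 to 0.20 for Folr2. Ageing in KO mice ran from -0.11 to 0.13 for Mrc1 and -0.23 to 0.0072 for Lyve1, and over both genotypes from -0.062 to 0.058 for Mrc1. The change of the KO difference with age ran from -0.088 to 0.15 for Mrc1, -0.036 to 0.12 for Stab1 and -0.068 to 0.27 for Lyve1.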
